A study of Mus musculus with 12 samples.

Results

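The 8 genes described here are Ptprc, Spn, Cd52, Ptpn7, Coro1a, Dock2, Was and Laptm5, which are read in most or all types of white blood cell and in few other cells. They were chosen by name, as a set of pan-leukocyte genes and with earlier results of these data known. The choice was made out of 35976 gene names with an expression value in each of 12 mouse libraries. The libraries come from A2lox.cre embryonic stem cells, a line made for placing a doxycycline-driven gene at a single prepared site, here RUNX1-EVI1. This leukaemia fusion joins the start of RUNX1, a transcription factor that blood cell formation needs, to EVI1, the zinc finger factor that Mecom encodes. Embryoid bodies were dispersed at 3.25 days, FLK1+ cells were taken and cultured for 1 day, and PlusDox cells then had 0.5 µg/ml doxycycline for 18 hours while NoDox cells had none. From each, 3 populations were sorted, hemogenic endothelial 1 (HE1), hemogenic endothelial 2 (HE2) and hematopoietic progenitor (HP). The 6 groups are thus PlusDox HE1, PlusDox HE2, PlusDox HP, NoDox HE1, NoDox HE2 and NoDox HP, with 2 biological replicates each.

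The NoDox cells carry the construct as well, and the study's groups hold no doxycycline-treated cells without it, so that an effect of the drug and of the fusion cannot be told apart. Stem cell colonies were picked and expanded, and how many clones the libraries stem from is not stated in the sources used here. Sort gates are not stated either, so it is not known whether the protein of any of the 8 genes was used to sort. The population labels were checked against markers. The sum of 13 endothelial markers was 2292 to 2715 FPKM in PlusDox HE1 and 2346 to 3083 FPKM in NoDox HE1, against 338 to 448 FPKM in PlusDox HP and 179 to 206 FPKM in NoDox HP, with the 4 HE2 libraries between. The sum of 9 erythroid markers was 7495 to 12567 FPKM in PlusDox HP and 11016 to 13748 FPKM in NoDox HP. Mecom, the mouse gene of the EVI1 part, read 23.0 and 18.1 FPKM in PlusDox HE1 and 17.0 and 28.3 FPKM in NoDox HE1, with overlap. In HE2 it read 18.4 and 20.2 FPKM in PlusDox and 6.08 and 13.9 FPKM in NoDox (log2 fold 0.98, adjusted p = 0.0923), and in HP 5.18 and 5.51 FPKM in PlusDox and 0.19 and 0.21 FPKM in NoDox (2.40, 0.0058). Mecom was called in HP and not in HE1 or HE2. Whether reads of the fusion were counted under Mecom is not known, so these values cannot be taken as a measure of fusion induction.

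Blood cells first arise in the embryo from hemogenic endothelium, a vascular tissue whose cells lose endothelial features as they turn on blood genes. Ptprc encodes CD45, a membrane tyrosine phosphatase that acts on Src family kinases and that is the usual surface mark of leukocytes. Spn encodes CD43, a mucin-like surface protein, and Cd52 encodes a small surface glycoprotein held by a lipid anchor. Ptpn7 encodes a cytosolic tyrosine phosphatase of blood cells that acts on MAP kinases. Coro1a encodes coronin 1A, which binds actin, Dock2 encodes an activator of the small GTPase RAC, and Was encodes the Wiskott-Aldrich syndrome protein, which turns on the ARP2/3 actin nucleator. Laptm5 encodes a lysosomal membrane protein that lowers the surface amount of antigen receptors.

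All 8 are protein coding genes of mm10. Ptprc (chr1:138062859-138175756) and Ptpn7 (chr1:135131838-135145328) lie 2.918 Mb apart, Coro1a (chr7:126699774-126704816) and Spn (chr7:127123637-127145552) 0.419 Mb, and Laptm5 (chr4:130912890-130936148) and Cd52 (chr4:134093538-134095073) 3.157 Mb. Dock2 (chr11:34226815-34783905) and Was (chrX:8081466-8090491) have no other member on their chromosome. Ptpn7 overlaps the annotated gene Ptprv, Laptm5 overlaps 1 annotated gene and Dock2 overlaps 5. Whether the counting used strand is not stated in those sources, so reads in these overlaps cannot be assigned to either gene with certainty.

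The sequences below are the 250 bases before an annotated start of 5 of the genes, shown because these genes differ in how they read with doxycycline in HE2: Ptprc, Coro1a and Spn were higher, Ptpn7 was lower and Was did not pass the test. They are from RefSeq, build GRCm38.p6, written 5′ to 3′ on the strand of the gene, at chr1:138175306-138175555 (minus) for Ptprc, chr7:126704817-126705066 (minus) for Coro1a, chr7:127137824-127138073 (minus) for Spn, chr1:135132450-135132699 (plus) for Ptpn7 and chrX:8090492-8090741 (minus) for Was. Capitals mark the RUNX core TGTGGT, the ETS core GGAAGT and the GATA core GATAAG, each searched on both strands; no 2 matches overlap.
Ptprc: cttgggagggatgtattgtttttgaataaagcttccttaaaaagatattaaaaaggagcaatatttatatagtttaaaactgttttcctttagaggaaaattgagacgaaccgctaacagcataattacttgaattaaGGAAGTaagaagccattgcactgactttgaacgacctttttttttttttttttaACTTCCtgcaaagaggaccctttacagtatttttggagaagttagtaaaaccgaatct
Coro1a: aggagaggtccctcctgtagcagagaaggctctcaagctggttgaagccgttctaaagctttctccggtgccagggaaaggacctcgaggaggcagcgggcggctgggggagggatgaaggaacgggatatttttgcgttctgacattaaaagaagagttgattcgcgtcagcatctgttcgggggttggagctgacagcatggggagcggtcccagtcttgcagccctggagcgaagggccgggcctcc
Spn: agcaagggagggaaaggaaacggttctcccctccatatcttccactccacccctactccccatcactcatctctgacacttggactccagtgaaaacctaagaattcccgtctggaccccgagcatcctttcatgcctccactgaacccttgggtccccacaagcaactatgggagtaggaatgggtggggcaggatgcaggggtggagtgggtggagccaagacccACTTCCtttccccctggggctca
Ptpn7: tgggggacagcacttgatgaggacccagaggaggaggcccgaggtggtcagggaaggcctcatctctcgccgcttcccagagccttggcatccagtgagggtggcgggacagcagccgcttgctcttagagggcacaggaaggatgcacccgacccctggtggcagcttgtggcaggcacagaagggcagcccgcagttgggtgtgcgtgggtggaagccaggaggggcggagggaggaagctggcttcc
Was: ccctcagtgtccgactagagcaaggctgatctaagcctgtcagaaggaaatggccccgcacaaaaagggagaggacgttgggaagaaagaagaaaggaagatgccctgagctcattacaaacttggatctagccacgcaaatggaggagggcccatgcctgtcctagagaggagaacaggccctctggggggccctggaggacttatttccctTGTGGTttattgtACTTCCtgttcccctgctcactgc

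A window was at hand for 7 of the 8 genes, the exception being Cd52, and Ptprc, Coro1a and Ptpn7 had 2 windows each. An ETS core was found in the windows of Ptprc, Laptm5, Spn and Was. In Ptprc it stands 112 to 107 and again, on the other strand, 58 to 53 bases before the start printed above, and in Spn it stands 23 to 18 bases before the start. Was was the only one with a RUNX core, 37 to 32 bases before its start and next to an ETS core at 24 to 19. The second window of Ptprc, not printed, held an ETS core 237 to 232 and a GATA core 99 to 94 bases before its own start. The windows of Coro1a, Ptpn7 and Dock2 held none of these 3 runs of 6 letters. Shorter runs such as GGAA and GATA, both present in the printed Coro1a window, were not searched. The shares that follow are per window, while a gene with 2 windows was searched in both. Of 32851 windows of this length, 19.7% held the ETS core, 14.0% the RUNX core and 6.5% the GATA core. The ETS and RUNX cores are thus common, and a match is a run of letters and not a shown binding site.

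Values are FPKM as deposited, a read of expression per transcript length and per mapped fragments of a library. Per library, 11461 to 12174 genes had at least 1 FPKM, and the 2 libraries of a group correlated at 0.973 to 0.983 (Pearson r across genes, which are not independent replicates). Absolute depth is unknown; the step size of low values put it, relative to the 12 libraries, between 0.574 in PlusDox HE1 replicate 2 and 1.625 in PlusDox HE1 replicate 1. In 5 libraries (replicate 2 of PlusDox HE1, of PlusDox HE2, of PlusDox HP and of NoDox HP, and replicate 1 of NoDox HE1) Lars2 read 10224 to 19970 FPKM, against 24.0 to 224 FPKM in the other 7, and in HE2 only PlusDox held such a library. All 8 genes passed the filter of at least 1 FPKM in at least 2 libraries, among 13316 genes tested. Folds are differences of mean log2(FPKM + 1), PlusDox over NoDox, with their standard error and the p of limma adjusted over all tested genes; an adjusted p below 0.05 made a call. A fold on this scale understates the change of a gene near 0 FPKM.

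The largest folds with doxycycline among these genes were those of Coro1a and Ptprc in HE2. Coro1a, Ptprc, Spn and Dock2 were higher and Ptpn7 was lower in PlusDox HE2 than in NoDox HE2, while Laptm5, Cd52 and Was did not pass the test. That is 4 of 8 genes called higher, where 3.82% of all tested genes were, and 1 of 8 called lower, where 2.24% were. The 8 genes were chosen with earlier results of these data known, so the shares give a scale and are no test of enrichment. The median fold of the 8 genes was 0.66, against −0.05 over all tested genes. In these bulk libraries more cells that express a gene and more RNA of it per cell cannot be told apart.

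Among the surface proteins, Ptprc read 8.43 and 14.8 FPKM in PlusDox HE2, against 0.59 and 1.17 FPKM in NoDox HE2. Both PlusDox libraries lay far above both NoDox ones, a ratio of means of 13.2 and a log2 fold of 2.72 ± 0.27 (adjusted p = 0.000436, limma; every ± is a standard error). Spn read 4.03 and 3.50 FPKM in PlusDox HE2, against 0.37 and 0.83 FPKM in NoDox HE2. The groups did not overlap, and the ratio of means was 6.23 (log2 fold 1.58 ± 0.21, adjusted p = 0.00172). Cd52 stood apart from these genes, with 1.5 and 1.39 FPKM in PlusDox HE2 and 1.38 and 3.46 FPKM in NoDox HE2. Its groups overlapped, and the log2 fold of −0.42 ± 0.29 did not pass (adjusted p = 0.441).

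Ptpn7, the MAP kinase phosphatase, fell, with 3.88 and 1.73 FPKM in PlusDox HE2 against 10.1 and 9.63 FPKM in NoDox HE2. Both PlusDox libraries lay below both NoDox ones, at 28.5% of the NoDox mean (log2 fold −1.57 ± 0.30, adjusted p = 0.0103). Ptprv, which overlaps it, read 1.19 and 0.31 FPKM in PlusDox HE2 and 2.20 and 1.93 FPKM in NoDox HE2, and did not pass the test (log2 fold −0.85 ± 0.29, adjusted p = 0.105). The part of such reads in the value of Ptpn7 was not tested.

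Of the 3 actin regulators, Coro1a and Dock2 were called and Was was not. Coro1a read 55.1 and 45.7 FPKM in PlusDox HE2, against 3.70 and 6.72 FPKM in NoDox HE2. The groups were far apart, with a ratio of means of 9.68 (log2 fold 3.09 ± 0.32, adjusted p = 0.000438). This fold was the highest of the 8 on the log2(FPKM + 1) scale, while Ptprc had the higher ratio of means and, with a pseudocount of 0.1, the higher fold (3.59, against 3.31 for Coro1a). Dock2 was read at low levels, 1.63 and 1.09 FPKM in PlusDox HE2 against 0.14 and 0.36 FPKM in NoDox HE2. These groups did not overlap either, with a ratio of means of 5.47 (log2 fold 0.92 ± 0.21, adjusted p = 0.0258). Was, by contrast, read 29.1 and 22.4 FPKM in PlusDox HE2 and 28.4 and 23.0 FPKM in NoDox HE2. The PlusDox and NoDox values of Was interleaved (log2 fold 0.00 ± 0.25, adjusted p = 1). The lysosomal gene Laptm5 read 78.2 and 55.5 FPKM in PlusDox HE2 and 51.0 and 47.7 FPKM in NoDox HE2, higher in both PlusDox libraries but not called (log2 fold 0.41 ± 0.25, adjusted p = 0.365).

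**Figure D1:**
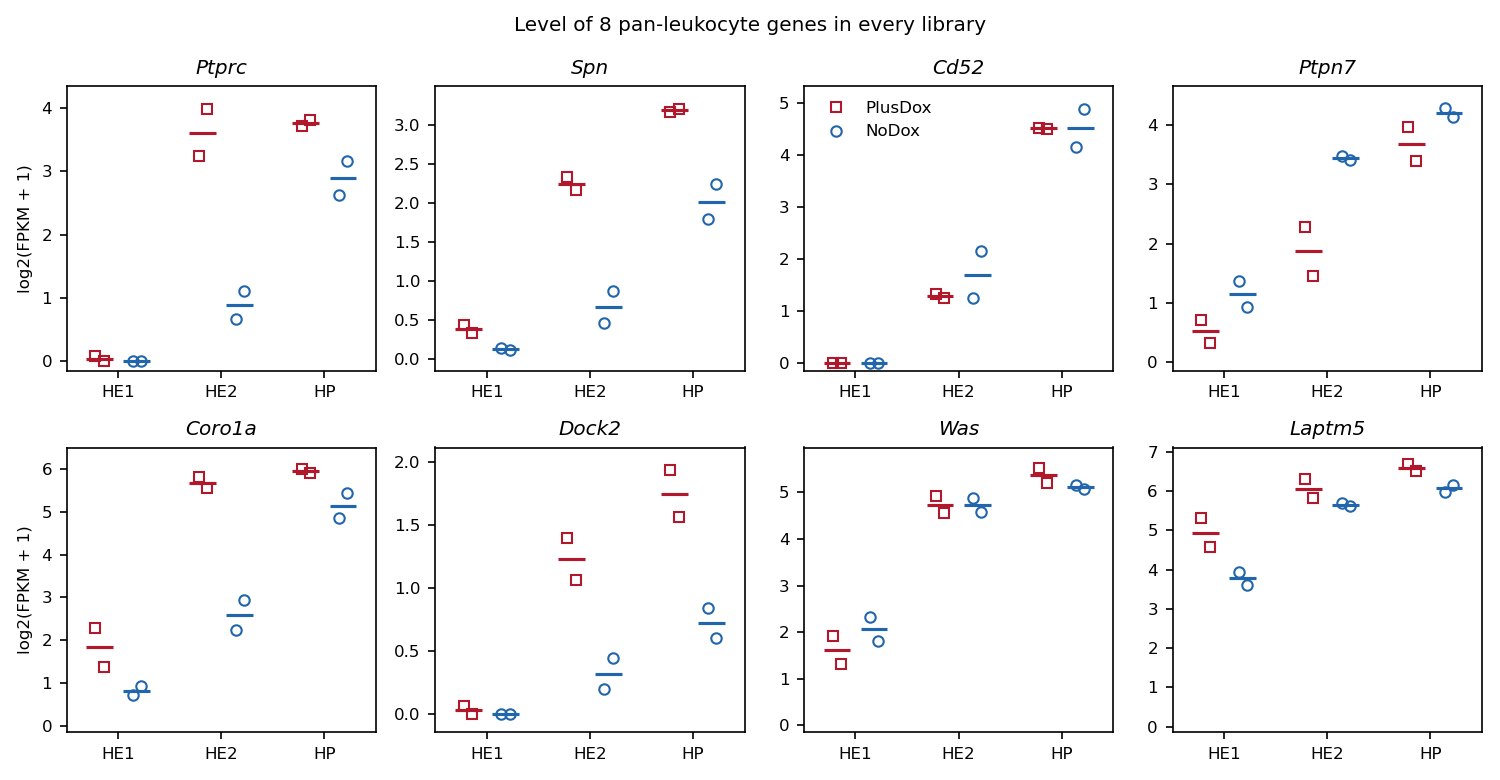
Expression of the 8 genes in each of the 12 libraries, as log2(FPKM + 1) on the vertical axis (each panel has its own range), by sorted population on the horizontal axis. Red squares are PlusDox libraries, blue circles NoDox libraries and lines the mean of 2 libraries; in HE2, the squares lie above the circles for Ptprc, Spn, Coro1a and Dock2, below them for Ptpn7 and among them for Was.

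With a pseudocount of 0.1 in place of 1, the HE2 folds of the genes with low values were larger, at 2.53 for Spn and 2.11 for Dock2. The calls of Ptprc, Coro1a and Spn held when any 1 of the 12 libraries was left out, with folds of 2.34 to 3.09, 2.73 to 3.45 and 1.37 to 1.79. The call of Ptpn7 was lost without NoDox HE2 replicate 1 (−1.54, adjusted p = 0.0743) or PlusDox HE2 replicate 2 (−1.15, 0.0944), and with no filter on low values (0.0587). That of Dock2 was lost without NoDox HE2 replicate 1 (0.79, 0.201), PlusDox HE2 replicate 1 (0.75, 0.115) or PlusDox HE2 replicate 2 (1.08, 0.0628), and in a fit of the HE2 groups alone (0.0962). Among the 7 libraries low in Lars2, where 1 residual degree of freedom was left, the HE2 folds were 3.22 for Coro1a (adjusted p = 0.0769), 2.34 for Ptprc (0.107), 1.66 for Spn (0.179), 1.08 for Dock2 (0.283) and −1.15 for Ptpn7 (0.259). The 5 directions were the same there, and no call was.

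**Figure D2:**
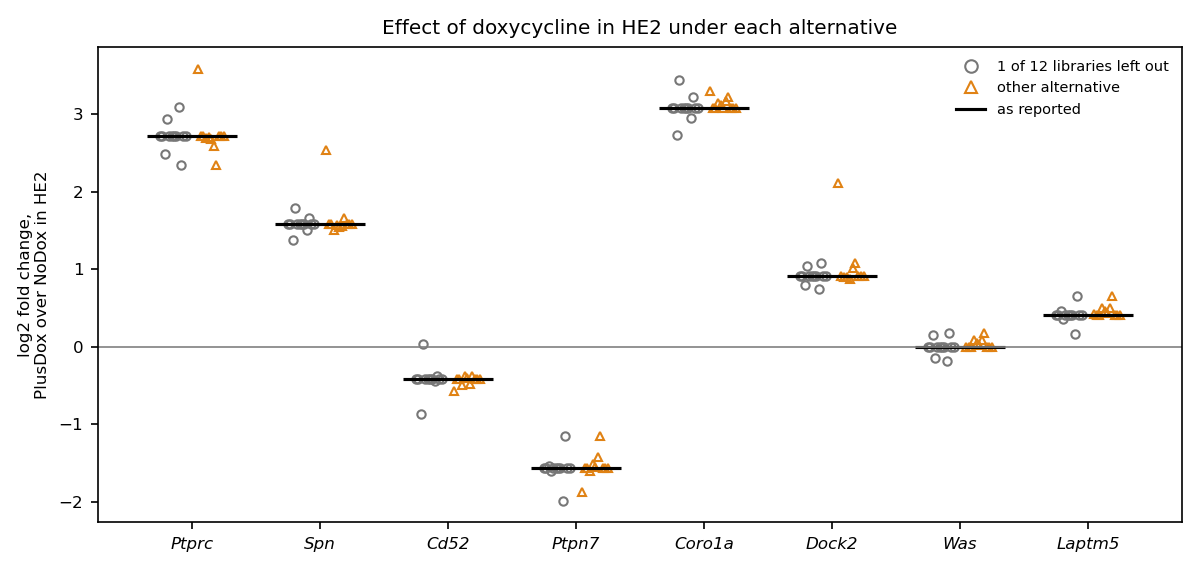
Log2 fold change of each gene in HE2, PlusDox over NoDox, as reported (black line), with each of the 12 libraries left out in turn (grey circles) and under the other alternatives (orange triangles). The folds of Ptprc, Spn, Coro1a and Dock2 stay above 0 and that of Ptpn7 below 0 in every alternative plotted, while those of Was and Cd52 lie on both sides of 0.

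In HE1, the earliest population, most of the 8 genes were near or at 0. Laptm5 alone was called, at 38.5 and 22.9 FPKM in PlusDox HE1 against 14.4 and 11.2 FPKM in NoDox HE1. The 2 PlusDox libraries were both higher (log2 fold 1.17 ± 0.25, adjusted p = 0.0433), 1 of 8 genes called higher where 0.961% of all genes were; none was lower, also at an unadjusted p below 0.05, where 0.406% of all genes were. This call is close to the threshold and was lost when any library but PlusDox HE1 replicate 2 or the 2 of PlusDox HE2 was left out (folds 0.81 to 1.53, adjusted p 0.024 to 0.228). Coro1a read 3.92 and 1.61 FPKM in PlusDox HE1 and 0.65 and 0.89 FPKM in NoDox HE1, with no overlap, and did not pass (log2 fold 1.02 ± 0.32, adjusted p = 0.198). Spn read 0.35 and 0.26 FPKM in PlusDox HE1 and 0.10 and 0.09 FPKM in NoDox HE1 (log2 fold 0.26 ± 0.21, adjusted p = 0.883). Ptpn7 read 0.64 and 0.25 FPKM in PlusDox HE1 and 1.58 and 0.91 FPKM in NoDox HE1 (−0.63 ± 0.30, adjusted p = 0.536). Spn and Ptpn7 thus lay in the same order as in HE2 and did not pass. Was read 2.79 and 1.49 FPKM in PlusDox HE1 and 4.02 and 2.50 FPKM in NoDox HE1, with overlap (−0.45 ± 0.25, adjusted p = 0.688). Cd52 was listed at 0 in all 4 HE1 libraries. Ptprc was listed at 0.07 and 0 FPKM in PlusDox HE1 and at 0 in both NoDox HE1 libraries, and Dock2 at 0.04 and 0 FPKM in PlusDox HE1 and at 0 in both NoDox HE1 libraries, so no fold is given.

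In HP, where all 8 genes were read in every library, Spn and Dock2 were higher with doxycycline. Spn read 7.95 and 8.25 FPKM in PlusDox HP, against 2.47 and 3.72 FPKM in NoDox HP (ratio of means 2.62, log2 fold 1.17 ± 0.21, adjusted p = 0.0315). Dock2 read 2.84 and 1.95 FPKM in PlusDox HP, against 0.79 and 0.52 FPKM in NoDox HP (ratio of means 3.65, log2 fold 1.03 ± 0.21, adjusted p = 0.046). Neither gene's groups overlapped, and these are 2 of 8 genes called higher where 0.601% of all genes were, and 0 of 8 called lower, also at an unadjusted p below 0.05, where 0.233% were. With a pseudocount of 0.1 the folds were 1.39 for Spn and 1.72 for Dock2, and neither was called (adjusted p = 0.16 and 0.214). The call of Spn was lost when any of 6 libraries was left out, both libraries of NoDox HE1, NoDox HP and PlusDox HP (folds 0.95 to 1.39, adjusted p up to 0.264), and that of Dock2 without any of those 6, either PlusDox HE1 library or PlusDox HE2 replicate 2 (0.84 to 1.22, up to 0.308).

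The other 6 genes did not pass in HP. Ptprc read 12.2 and 13.1 FPKM in PlusDox HP and 5.16 and 7.98 FPKM in NoDox HP (log2 fold 0.87 ± 0.27, adjusted p = 0.228). Coro1a read 62.3 and 59.1 FPKM in PlusDox HP and 27.9 and 42.0 FPKM in NoDox HP (0.81 ± 0.32, adjusted p = 0.394). For both genes the PlusDox libraries lay above the NoDox libraries, with smaller folds than in HE2, and the test of that difference is given with the interactions. Laptm5 read 102 and 89.7 FPKM in PlusDox HP and 61.7 and 70.5 FPKM in NoDox HP (0.53 ± 0.25, adjusted p = 0.552). Ptpn7 read 14.7 and 9.48 FPKM in PlusDox HP and 18.5 and 16.7 FPKM in NoDox HP (−0.53 ± 0.30, adjusted p = 0.682). Laptm5 was again higher and Ptpn7 again lower in both PlusDox libraries. Was read 44.9 and 35.8 FPKM in PlusDox HP and 34.8 and 32.8 FPKM in NoDox HP (0.24 ± 0.25, adjusted p = 0.945). Cd52 read 22.2 and 21.7 FPKM in PlusDox HP, between the 16.8 and 28.6 FPKM of NoDox HP (0.00 ± 0.29, adjusted p = 1).

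**Figure D3:**
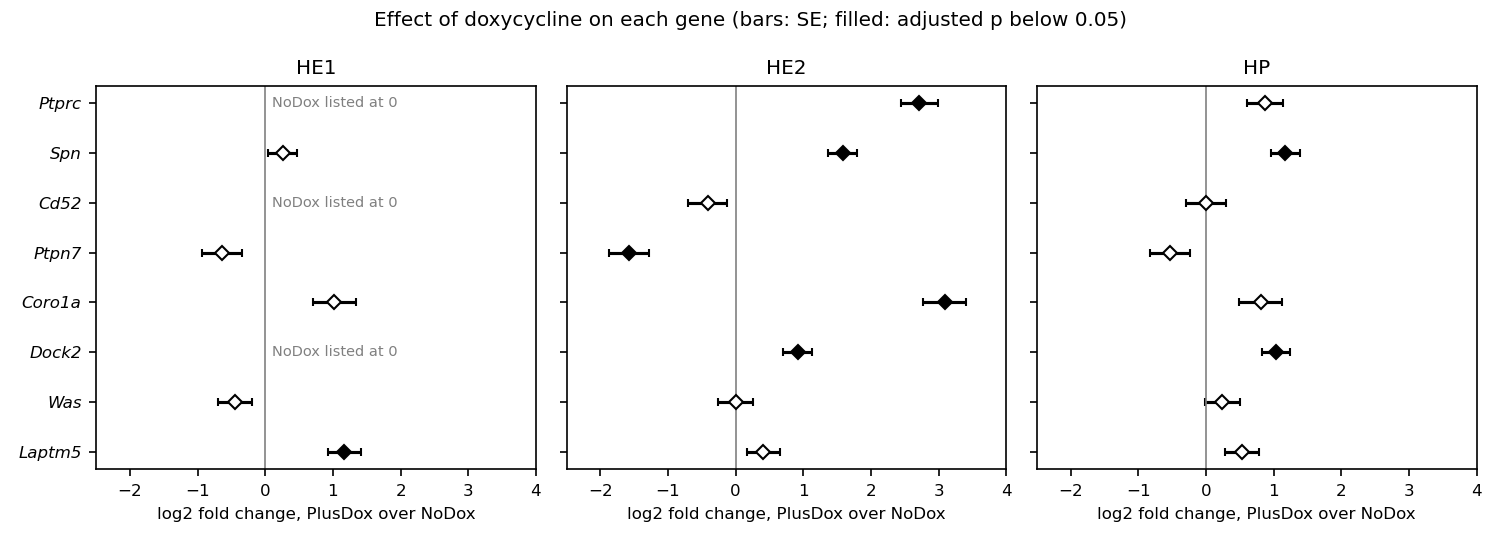
Log2 fold change of FPKM + 1, PlusDox over NoDox, for each gene in HE1, HE2 and HP; bars are the standard error and filled diamonds are genes called by limma at an adjusted p below 0.05. Coro1a (3.09) and Ptprc (2.72) reach furthest to the right in HE2, Ptpn7 lies left of 0 in all 3 populations and is called in HE2 only, and genes listed at 0 in NoDox HE1 have no value.

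Whether the effect of doxycycline itself differed between populations was tested as an interaction. Ptprc was the only one of the 8 genes called, between HE2 and HE1 (adjusted p = 0.0397, limma), where 0.0451% of all genes were; it has no fold, since NoDox HE1 was listed at 0. This call was lost in 9 of 11 other settings and when any library but PlusDox HE2 replicate 1 was left out. Coro1a had an interaction of 2.07 ± 0.45 between HE2 and HE1 (adjusted p = 0.197). Of the 8 genes, 5 had an unadjusted p below 0.05 between HE2 and HE1 (limma), Ptprc and Coro1a among them. Between HP and HE2, Coro1a had −2.28 ± 0.45 (unadjusted p = 0.000274, adjusted p = 0.28) and Ptprc −1.84 ± 0.38 (adjusted p = 0.296). None of the 8 genes passed there, where 0.015% of all genes did, and none between HP and HE1, where 0.0375% did (limma; 3 and 2 of the 8 had an unadjusted p below 0.05). That the effect on Coro1a or Ptprc was larger in HE2 than in HP is therefore not shown at the threshold used, and comparisons that use HE2 share its libraries.

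Along the path of differentiation, all 8 genes were higher in HE2 than in HE1 with doxycycline, and 5 of 8 without it, where 5.7% and 5.67% of all genes were. The median of all genes moved by 0.17 with and by 0.16 without doxycycline in this step, and by 0.03 in both after median scaling, so that folds of the step include that shift. With doxycycline, Coro1a had a log2 fold of 3.84 ± 0.32 and Ptprc of 3.56 ± 0.27 (adjusted p = 4.16e-05 and 2.77e-05). On the same scale Was had 3.11 ± 0.25, Spn 1.86 ± 0.21, Ptpn7 1.35 ± 0.30, Dock2 1.20 ± 0.21 and Laptm5 1.12 ± 0.25 (adjusted p up to 0.0166), and Cd52 was called (0.0185) with HE1 listed at 0. The order of these folds depends on the pseudocount, and with 0.1 Ptprc had 6.45, Coro1a 4.27, Dock2 3.59, Was 3.58, Spn 3.25, Ptpn7 2.40 and Laptm5 1.15. Without doxycycline, Was stood at 2.67 ± 0.25, Ptpn7 at 2.29 ± 0.30, Laptm5 at 1.88 ± 0.25 and Coro1a at 1.77 ± 0.32 (adjusted p up to 0.00565), and Cd52 was called with HE1 listed at 0 (0.00449). Spn (0.54 ± 0.21, adjusted p = 0.128), Ptprc (0.0577) and Dock2 (0.347) did not pass in this step without doxycycline. With a pseudocount of 0.1 Spn was at 1.78 and was called (0.0181). The count of 8 with doxycycline was 5 without PlusDox HE1 replicate 2, 4 without PlusDox HE2 replicate 1 and 5 with no filter on low values. In NoDox cells the actin regulator Was, the phosphatase Ptpn7 and the lysosomal gene Laptm5 were thus read in HE2 while Ptprc, Spn and Dock2 were at or below 1.17 FPKM.

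From HE2 to HP, 3 of 8 genes were higher with doxycycline and 4 of 8 without it, where 5.96% and 5.31% of all genes were. Cd52 rose most in both, by 3.23 ± 0.29 on the log2 scale with doxycycline (adjusted p = 2.89e-05) and by 2.82 ± 0.29 without it (5.52e-05). Spn rose in both too, by 0.94 ± 0.21 with doxycycline (0.00986) and by 1.35 ± 0.21 without it (0.000938). Its call with doxycycline was lost with a pseudocount of 0.1 (0.0832), without PlusDox HE2 replicate 2 (0.0771) and without PlusDox HP replicate 2 (0.0605). Ptpn7 was called with doxycycline, at 1.81 ± 0.30 (adjusted p = 0.00121), and stood at 0.77 ± 0.30 without it (0.105), where it was called in 6 of 11 other settings (adjusted p down to 0.0153). For the other 2, with doxycycline Coro1a had 0.27 ± 0.32 (0.647) and Ptprc 0.16 ± 0.27 (0.769), and without it they had 2.55 ± 0.32 (0.000178) and 2.00 ± 0.27 (0.000328). The difference between those steps is the interaction between HP and HE2 given above, which did not pass. Dock2, Was and Laptm5 passed in neither, with folds of 0.52 to 0.63 with and 0.39 to 0.41 without doxycycline. The count with doxycycline was 5 under quantile normalization, under median scaling and with equal sums without Lars2 and the 2 other features that rise with it.

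**Figure D4:**
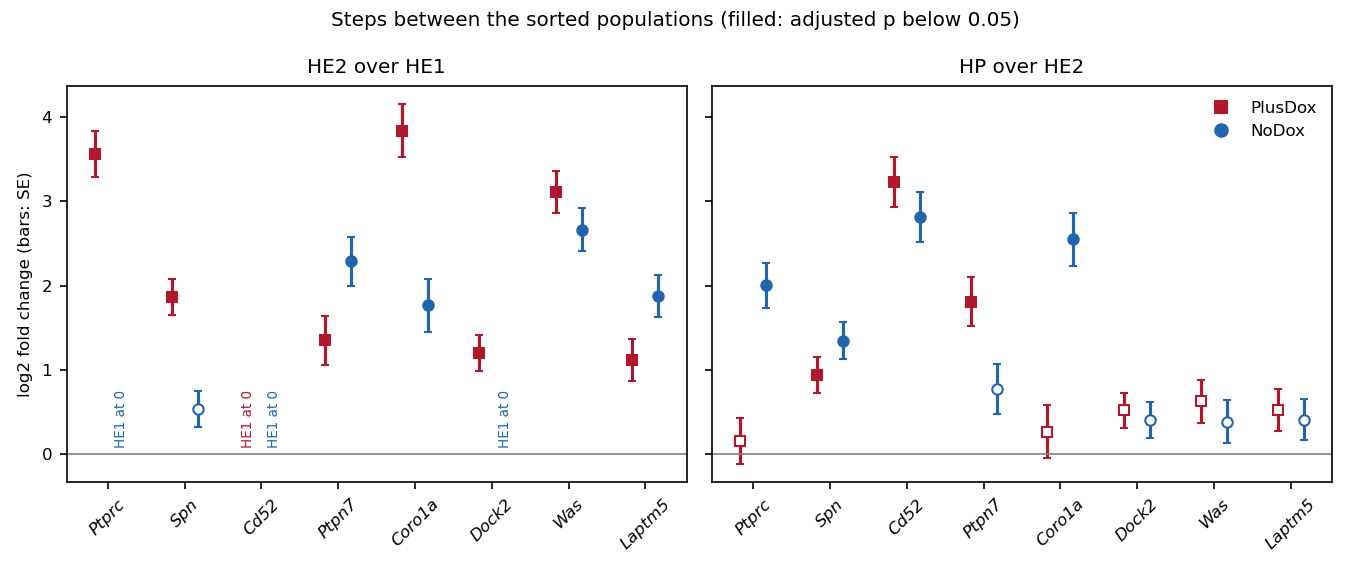
Log2 fold change of FPKM + 1 between populations, HE2 over HE1 on the left and HP over HE2 on the right, with doxycycline (red squares) and without it (blue circles); bars are the standard error and filled symbols are genes called by limma at an adjusted p below 0.05. In the right panel Coro1a and Ptprc are near 0 with doxycycline (0.27 and 0.16) and high without it (2.55 and 2.00), while Cd52 is high in both; where HE1 was listed at 0 no fold is drawn.

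Ordered from low to high, the 6 groups fell into 3 patterns. For Ptprc, Coro1a, Spn and Dock2, and also Laptm5, the order was NoDox HE1, PlusDox HE1, NoDox HE2, NoDox HP, PlusDox HE2 and PlusDox HP, so that PlusDox HE2 ranked above NoDox HP. The mean of PlusDox HE2 stood at 208% of NoDox HP for Dock2, 177% for Ptprc, 144% for Coro1a, 122% for Spn and 101% for Laptm5, and the values of these 2 groups overlapped for Spn and Laptm5. Among the other neighbours in that order, PlusDox HE2 and PlusDox HP overlapped for Ptprc, PlusDox HE1 and NoDox HE2 for Coro1a, and PlusDox HE1 and NoDox HE1 for Ptprc and Dock2. Cd52 and Was followed the populations, with every HE1 library below every HE2 library and every HE2 library below every HP library. PlusDox HE2 stood at 6.36% of NoDox HP for Cd52 and at 76.3% for Was. Ptpn7 had PlusDox below NoDox in each population, and PlusDox HE2 at 16.0% of NoDox HP; its only overlap between neighbours was of PlusDox HP with NoDox HE2.

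On the FPKM scale, which is per transcript length, Laptm5, Coro1a and Was were the most abundant of the 8 and Dock2 the least in HP. The mean of PlusDox HP was 95.7 FPKM for Laptm5, 60.7 for Coro1a and 40.4 for Was, against 2.39 for Dock2. Over the 12 libraries, Ptpn7 followed the mean of the other 7 genes least closely, with a Pearson r of 0.76, against 0.86 to 0.93 for the other genes; the libraries share their population and class, and no p is given. The 5 other genes most like the mean of the 8, among 9430 with a mean of at least 5 FPKM in a group, were Tyrobp, Myo1f, Pik3ap1, Tgm1 and Ccl9 (r of 0.991 to 0.992 over 12 libraries). Tyrobp, a signalling adaptor of myeloid and natural killer cells, had means of 33.6 FPKM in PlusDox HE2 and 8.04 FPKM in NoDox HE2. The 3 most like Ptpn7 were Rfc5, a subunit of the clamp loader of DNA replication, Mpo, the myeloperoxidase of neutrophil granules, and Mrvi1, also with an r of 0.991 to 0.994. Mpo had means of 2.34 FPKM in PlusDox HE2 and 15.5 FPKM in NoDox HE2. Tyrobp and Mpo were picked for likeness over these same 12 libraries, so the direction of their HE2 values follows from that choice.

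Other genes of the same processes were counted in lists chosen by function, with earlier results of these data known. The shares of all genes set beside these lists and the marker lists give a scale and are no test of enrichment. Of 24 genes of leukocyte actin control and adhesion, 22 were tested, and in HE2 5 were higher with doxycycline and 0 lower, where 3.82% and 2.24% of all genes were, with a median fold of 0.44 against −0.05 over all genes. At an unadjusted p below 0.05, 11 were higher and 1 lower, the lower one being Arhgdib, an inhibitor of nucleotide exchange on small GTPases, at 136 FPKM in PlusDox HE2 and 212 FPKM in NoDox HE2 on average (−0.64 ± 0.18, adjusted p = 0.055). The 5 calls included the formin Fmnl1 (1.52 ± 0.24, adjusted p = 0.0037), which read 17.8 FPKM in PlusDox HE2 and 5.63 FPKM in NoDox HE2 on average. The leukocyte myosin Myo1g (1.22 ± 0.26, 0.0204), the integrin subunit Itga4 (1.13 ± 0.25, 0.0214) and the DOCK family gene Dock10 (1.11 ± 0.28, 0.0378) were also higher. In HE1 Fmnl1 alone of this list was called (1.11 ± 0.24, adjusted p = 0.0452), and in HP none was (7 higher and 0 lower at an unadjusted p below 0.05), with a median fold of 0.37 against 0.00 over all genes.

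Of 26 genes of leukocyte surface and tyrosine kinase signalling, 23 were tested, and 5 were higher and 0 lower in HE2, where 3.82% and 2.24% of all genes were, with a median fold of 0.46. At an unadjusted p below 0.05, 10 were higher and 1 lower, the adaptor Dok2 (−0.82 ± 0.31, adjusted p = 0.148). Among the 5 calls were Ptpn6, which encodes the phosphatase SHP-1 (1.17 ± 0.31, adjusted p = 0.0441), the hyaluronan receptor Cd44 (1.17 ± 0.30, 0.0431), the adaptor Fyb (1.05 ± 0.19, 0.00823) and the PI3 kinase subunit Pik3r5 (1.02 ± 0.17, 0.00584). In HP Ptpn22, a phosphatase of lymphocyte receptors, was the single call (1.13 ± 0.18, adjusted p = 0.0133), and in HE1 there was none (3 higher and 0 lower at an unadjusted p below 0.05). Ptpn6 read 70.1 FPKM in PlusDox HE2 and 30.0 FPKM in NoDox HE2 on average, a rise where the phosphatase Ptpn7 fell.

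Ptpn7 acts on MAP kinases, and 8 of 10 genes of these kinases and their phosphatases were tested. In HE2, 2 were called, both phosphatases and both higher, where 3.82% of all genes were higher and 2.24% lower. They were Dusp6 (1.76 ± 0.36, limma adjusted p = 0.0149), at 42.3 FPKM in PlusDox HE2 and 12.5 FPKM in NoDox HE2 on average, and Dusp5 (1.57 ± 0.28, 0.0073). At an unadjusted p below 0.05, 3 were higher and 1 lower, and 5 of the 8 had a fold above 0. The phosphatase Dusp2 averaged 34.7 FPKM in PlusDox HE2 and 54.3 FPKM in NoDox HE2, and the kinase Mapk14 33.3 and 48.2 FPKM. Dusp5 was also called in HE1 (1.54 ± 0.28, 0.0197), and none was in HP (3 higher and 0 lower at an unadjusted p below 0.05). Of 13 blood transcription factors only Spi1, which encodes PU.1, was called, higher in HE2 (1.34 ± 0.27, limma adjusted p = 0.0154), where 3.82% of all genes were. It averaged 63.7 FPKM in PlusDox HE2 and 24.4 FPKM in NoDox HE2. The median HE2 fold of the 13 was −0.24, against −0.05 over all genes, and 5 of the 13 had a fold above 0. At an unadjusted p below 0.05, 1 was higher and 1 lower. Myb averaged 26.0 FPKM in PlusDox HE2 and 45.5 FPKM in NoDox HE2, and Ikzf1 13.5 and 22.6 FPKM. Runx1 itself did not pass in HE2 (−0.24 ± 0.57, adjusted p = 0.847).

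Markers of other cell types were set beside the HE2 result, in which 3.82% of all tested genes were called higher and 2.24% lower. Macrophage markers summed to 25.5 to 31.0 FPKM in PlusDox HE2 and 13.7 to 14.9 FPKM in NoDox HE2, with Cd68 (1.47 ± 0.21, adjusted p = 0.0024) and Mertk (1.02 ± 0.23, 0.0233) the 2 of 7 tested that were called, both higher. Csf1r read 2.28 and 2.43 FPKM in PlusDox HE2 and 0.84 and 1.13 FPKM in NoDox HE2, higher in both PlusDox libraries but not called (0.76 ± 0.23, 0.0694), and Mrc1 averaged 4.39 FPKM in PlusDox HE2 and 5.34 FPKM in NoDox HE2. Of the other defining markers, C1qa and C1qc were listed at 0 in all 4 HE2 libraries, Adgre1 read at most 0.06 FPKM and Cd14 read 0.89 and 0.90 FPKM in PlusDox HE2 and 1.10 and 1.5 FPKM in NoDox HE2. The sum of 10 lymphoid markers was 6.58 to 10.0 FPKM in PlusDox HE2 and 1.49 to 2.07 FPKM in NoDox HE2, nearly all of it Cd79b (1.76 ± 0.27, adjusted p = 0.00367), while Cd3e, Cd3g and Ncr1 were listed at 0 in all 12 libraries. Of 4 tested granulocyte and mast cell markers 2 were lower, Mpo (−2.33 ± 0.27, 0.000801) and Cpa3 (−0.73 ± 0.18, 0.0349), and the 7 listed summed to 35.4 to 52.0 FPKM in PlusDox HE2 and 84.2 to 90.2 FPKM in NoDox HE2. Most of that sum was Kit, a receptor that blood progenitors and hemogenic endothelium also express, at 40.4 FPKM in PlusDox HE2 and 70.3 FPKM in NoDox HE2 on average (−0.80 ± 0.28, 0.112), and Prtn3 averaged 0.73 FPKM in PlusDox HE2 and 0.38 FPKM in NoDox HE2 (0.38 ± 0.26, 0.427). The sum of the 13 endothelial markers was 2103 to 2255 FPKM in PlusDox HE2 and 1237 to 1819 FPKM in NoDox HE2. Called higher were 3 of the 13, Cldn5 (1.78 ± 0.44, limma adjusted p = 0.0367), Egfl7 (1.11 ± 0.23, 0.0146) and Esam (1.06 ± 0.26, 0.0368). Of the 13, 10 had a fold above 0, while Eng averaged 75.5 FPKM in PlusDox HE2 and 101 FPKM in NoDox HE2. Kdr and Sox18 were also lower on average. The part of a changed mix of cells in the values of the 8 genes was not tested.

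Of the erythroid and mesenchymal lists 1 gene each was called in HE2, and it was lower, where 2.24% of all genes were. They were Alas2 of 9 erythroid markers (−1.43 ± 0.22, limma adjusted p = 0.0037) and Pdgfrb of 5 tested mesenchymal markers (−1.24 ± 0.27, 0.0203). None of 5 pluripotency markers passed the filter, and they summed to at most 1.76 FPKM in any library. In HP, 0.601% of all genes were called higher and 0.233% lower. There 4 of 13 endothelial markers were higher, Cdh5 (1.99 ± 0.26, limma adjusted p = 0.0058), Ramp2 (1.74 ± 0.22, 0.00504), Egfl7 (1.64 ± 0.23, 0.00679) and Sox18 (1.32 ± 0.21, 0.0133), and 12 of the 13 had a fold above 0. Cd79b was higher too (1.43 ± 0.27, 0.0339), and Alas2 was lower (−1.54 ± 0.22, 0.00932). In HE1 Cd68 was the 1 marker of these lists called (1.21 ± 0.21, limma adjusted p = 0.0164), higher, as Laptm5 was, where 0.961% of all genes were. The part of the cells these markers stand for in the calls of Spn and Dock2 in HP and of Laptm5 in HE1 was not tested.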

How the data were processed

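Total RNA of sorted mouse cells was sequenced paired-end as 12 stranded libraries in a single pool, per the labels' protocols. The submitters' processing notes name StringTie 1.3.3, HISAT2 2.1.0 and Trimmomatic 0.32, with the build mm10; no annotation or strand setting is given in the sources used here. Files were deposited without a header, and their values were read as FPKM made by the authors, since sums differ between libraries (468326 to 579055). Repeated names were summed (2 to 4 per file).

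Genes with at least 1 FPKM in at least 2 libraries were tested with limma 3.58.1 (R 4.3.3) on log2(FPKM + 1), with 6 group means, an intensity trend and 6 residual degrees of freedom. P-values were two-sided and Benjamini-Hochberg adjusted over 13316 genes. They measure the spread between 2 replicates, pooled over groups; nothing says how the replicates differ beyond being biological. Replicate numbers were not taken to pair samples, since the labels tie them to nothing. The replicate differences of 12 of 15 pairs of groups did correlate above 0.1 (r −0.1 to 0.526). Between PlusDox and NoDox the r was 0.082 in HE1, 0.489 in HE2 and 0.436 in HP. A fit with a replicate block is therefore given among the alternatives. The method was tested on simulated data. Python 3.11.15 read the files.

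The members and lists were chosen with earlier results of these data known. Named genes were the 8 genes, up to 4 called genes per list and comparison with the largest folds, and the 5 and 3 most alike, apart from 1 list gene that is not reported here; Runx1, Mecom and Lars2 stand beside results, and Ptprv, Arhgdib, Dok2 and the markers that were not called were named after their values were seen. Relative depth came from the step size of low values in genes with 1 transcript. Coordinates and sequences are RefSeq's (GRCm38.p6, 32501 of 35976 names found). Alternatives were another pseudocount, 2 other filters, 3 scalings, a Lars2 class term, libraries low in Lars2, the replicate block, no intensity trend, the compared groups alone and each library left out.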

Additional observations from a re-analysis of the deposited data

Results flagged for a closer look

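In limma, the doxycycline effect on Ptprc was called as different between HE2 and HE1 (adjusted p = 0.0397). Ptprc read 0.07 and 0 FPKM in PlusDox HE1 and was listed at 0 in both NoDox HE1 libraries, so the HE1 effect lies near 0 on the log2(FPKM + 1) scale and the value largely repeats the HE2 difference. The call was lost with a pseudocount of 0.1, in 9 of 11 other settings in all, and in 11 of 12 fits with 1 library left out. The other 7 genes did not pass.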

How the results depend on the processing

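The 67 values of single genes were recomputed under 23 alternatives, giving 1535 values, of which 1416 kept their direction and side of the threshold, 75 lost a call, 15 gained one and 29 turned. In HE2 the count of 5 genes called was 0 among libraries low in Lars2 and 3 to 5 with 1 library left out. In HE1 the count of 1 was 0 with a pseudocount of 0.1, with no filter, among libraries low in Lars2 and in the compared groups alone, and 0 to 1 with 1 left out. In HP the count of 2 was 0 in those 4 and with the stricter filter, 1 with equal sums without the 3 features, and 0 to 2 with 1 left out. The 1 call between HE2 and HE1 effects was 0 with a pseudocount of 0.1, either other filter, the 3 scalings, the class term, the libraries low in Lars2 and the compared groups alone, and 0 to 1 with 1 left out. For HE2 against HE1 without doxycycline 5 became 3 among libraries low in Lars2; with doxycycline 8 became 5 with no filter, 0 among those libraries, and 4 to 8 with 1 left out. For HP against HE2 without doxycycline 4 became 1 among those libraries; with doxycycline 3 became 5 under the 3 scalings and 0 among those libraries. With the replicate block, the counts of genes called with doxycycline stayed at 1, 5 and 2 in HE1, HE2 and HP, and the numbers were not taken to pair samples. Dock2 stayed below 5 FPKM in every library, so with the stricter filter it was not tested, has no values and counts as not called. With 1 library left out, the lone library of its group is taken to vary like the others. The causes were not tested, other than that libraries low in Lars2 left 1 residual degree of freedom.

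None of the 29 turned values is of a called result. Among libraries low in Lars2, Was turned to 0.12 in HE1 and 0.18 in HE2, Cd52 to 0.38 in HP and Ptpn7 to −0.09 between HP and HE1 effects. Was in HE2 was 0.083 with quantile normalization, 0.046 with median scaling, 0.019 with equal sums and 0.084 with the class term, and with 1 library left out −0.18 to 0.18. Cd52 in HP was 0.0001 with a pseudocount of 0.1, 0.017 with quantile normalization and −0.37 to 0.36 with 1 left out, and in HE2 −0.87 to 0.037. Between HP and HE2 effects Dock2 was −0.39 with a pseudocount of 0.1, −0.022 with quantile normalization and −0.076 to 0.30 with 1 left out, Laptm5 −0.13 to 0.36 and Cd52 −0.039 to 0.87. Between HP and HE1 effects Coro1a was −0.67 to 0.25 and Ptpn7 −0.19 to 0.39, and Ptprc for HP against HE2 with doxycycline was −0.22 to 0.53. The absolute depth is unknown, so no floor can be set for genes listed at 0.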
